A study of Homo sapiens with 12 samples.

Results

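Granins are the acidic cargo proteins of dense core granules, the vesicles in which neuroendocrine cells store peptide hormones and amines, and prohormone convertases with their helpers cut granins and hormone precursors into active peptides there. The genes described here are 10 such genes, chosen by name: the granin family genes CHGA, CHGB, SCG2, SCG3, SCG5 and VGF, and the processing genes PCSK1, PCSK2, PCSK1N and CPE. All 10 were found by Ensembl identifier among the 58051 genes of the table, and 8 held enough counts to be tested. SCG5 and PCSK2 did not. The cells are NB-1, an established neuroblastoma line, grown for 48 h in 4 groups of 3 biological replicates each. The groups received DMSO alone as the solvent control, BEZ-235 at 0.5 µM, SAHA at 0.5 µM, or both together at these doses. BEZ-235, also called dactolisib, inhibits PI3K and mTOR kinases. SAHA, also called vorinostat, inhibits histone deacetylases. All groups are cultures of 1 line, so the values describe NB-1 and not neuroblastoma in general.

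Chromogranins (CHGA, CHGB) and secretogranins (SCG2, SCG3) bind calcium, aggregate in the late Golgi and help to form the granule core, and VGF and SCG2 are themselves cut into signalling peptides. The enzymes act in sequence: PCSK1 and PCSK2 cut precursors after pairs of basic residues, and CPE trims the basic residues left at the new ends. PCSK1N encodes proSAAS, an inhibitor of the PCSK1 protein, and SCG5 encodes 7B2, a chaperone that PCSK2 needs for activation. Neuroblastoma arises from sympathoadrenal precursors, and chromogranin A is a familiar marker of such tumours.

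Of the 10 genes, 8 had a promoter window in RefSeq (build GRCh38.p14, 250 bases before to 50 bases after a start site), with 10 windows among them. CHGB and SCG2 had none. The palindrome TGACGTCA, the cAMP response element, stood in windows of 3 genes, CHGA, VGF and PCSK1 (in 1 of its 2 windows), and in 1.85% of all 35116 promoters of the same length. These 3 stretches are shown because the element is shared by genes that moved in different directions under BEZ-235. Each runs 5′ to 3′ on the strand of its gene over the 150 bases before the RefSeq start, with the element in capitals.
CHGA: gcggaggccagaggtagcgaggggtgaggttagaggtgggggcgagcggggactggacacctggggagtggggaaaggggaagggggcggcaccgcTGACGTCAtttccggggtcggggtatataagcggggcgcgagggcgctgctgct
VGF: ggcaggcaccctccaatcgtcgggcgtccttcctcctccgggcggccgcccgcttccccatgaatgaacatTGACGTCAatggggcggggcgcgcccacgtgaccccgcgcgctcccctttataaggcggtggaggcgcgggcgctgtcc
PCSK1: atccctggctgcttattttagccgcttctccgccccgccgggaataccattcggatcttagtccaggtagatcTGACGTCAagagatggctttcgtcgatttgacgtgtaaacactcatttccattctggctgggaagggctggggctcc
They lie at chr14:92923000-92923149 (plus strand), chr7:101165570-101165719 (minus strand) and chr5:96433249-96433398 (minus strand). These RefSeq starts lie inside the gene spans given below, which come from GENCODE. The CHGA and VGF stretches thus overlap those spans in part and the PCSK1 stretch in full. The first base of the element lay at −54 from the RefSeq start for CHGA, −79 for VGF and −77 for PCSK1. The shorter TGACG, searched on both strands and contained in the full element, stood in 24.6% of all promoters and in windows of CPE, SCG3, SCG5 and PCSK2 as well. PCSK1N held neither. A match is a stretch of letters and no measure of binding.

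The 12 libraries of polyadenylated RNA, made with a stranded kit, held 17662944 to 79543539 counts with a median of 20407979.5, and SAHA replicate 2 was the deepest. Levels are CPM, in which counts are divided by the scaled library size, and differences as log2 fold changes ± SE from an edgeR quasi-likelihood fit over 17774 genes, with 3 libraries per group and 2-sided p-values adjusted by Benjamini-Hochberg over all genes tested. A difference was called at an adjusted p under 0.05. Adrenergic neuroblastoma and chromaffin markers summed to 5599 to 7751 CPM over all libraries with 12 of 13 markers tested, while PNMT, the adrenaline-making enzyme, stayed under 1 CPM. Most of that sum came from ALK (mean 4265 CPM in DMSO) and MYCN (1062), and the markers did not move together. TH averaged 138 CPM in DMSO, 53.9 with BEZ-235, 38.6 with SAHA and 41.4 with both drugs, while HAND2 averaged 408, 419, 407 and 605. DBH averaged 0.951 to 3.13 CPM by group, and SLC6A2 was under 1 CPM in every treated group. The Schwann cell and glial markers SOX10 and GFAP were under 1 CPM in every group, the 7 leukocyte markers together stayed at or under 1.44 CPM, and the endothelial list at or under 5.12 CPM. Fibroblast and mesenchymal markers summed to 368 to 415 CPM in DMSO, 234 to 276 with BEZ-235, 708 to 792 with SAHA and 316 to 371 with both drugs, and their part in the results was not tested. Within this sum LUM averaged 60.7 CPM in DMSO, 10.7 with BEZ-235, 328 with SAHA and 94.6 with both drugs, and FN1 168, 46.7, 218 and 95.7. PRRX1 moved otherwise, at 134, 184, 109 and 91.6 CPM in the same order. In bulk RNA, fewer cells with a transcript and less transcript per cell cannot be told apart.

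Libraries treated with both drugs also differed from DMSO along the GC content of transcripts. The median log2 fold change of all genes ran from −0.45 in the lowest of 5 equal bins of GC content to 0.45 in the highest, against 0.05 and −0.13 for BEZ-235 and 0.03 and −0.20 for SAHA. CHGA (62.4% GC in its longest transcript), VGF (70.6%) and PCSK1N (74.5%) lie in the highest bin, CHGB (52.3%) in the next, and the remaining members between 41.9% (SCG3) and 47.5% (CPE). A GC and length correction takes a smooth trend out of each library. It is therefore given beside a member's uncorrected log2 fold change where it ends a call, turns a direction or moves it more than 1.5 times. For counts and medians the corrected values are given in part. The part of the GC trend in these results was not tested beyond that correction.

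In DMSO the granin transcripts other than SCG5 were more abundant per length than those of both convertases. Per kilobase of the longest transcript, the order was CHGA (258 CPM per kilobase), VGF (87.5), SCG2 (58.1), SCG3 (45.2), CPE (42.1), CHGB (39.5), PCSK1 (9.57), PCSK1N (4.70), SCG5 (0.108) and PCSK2 (0.0068). The ranges of the 3 DMSO libraries did not overlap between any neighbours in this order, and the order was the same with the union of the exons as length (171.8 CPM per kilobase for CHGA and 22.2 for CHGB). SCG2 moved up beside CHGA under SAHA (229 against 212 CPM per kilobase) and under both drugs (236 against 246), and in both groups the library ranges of these 2 genes overlapped. The neighbours CHGB and SCG2 overlapped under BEZ-235, as did VGF and SCG3, and SCG3 and CPE overlapped under SAHA. With both drugs the neighbours CHGB and CPE, CPE and SCG3, SCG3 and VGF, and PCSK1N and PCSK1 overlapped.

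**Figure D1:**
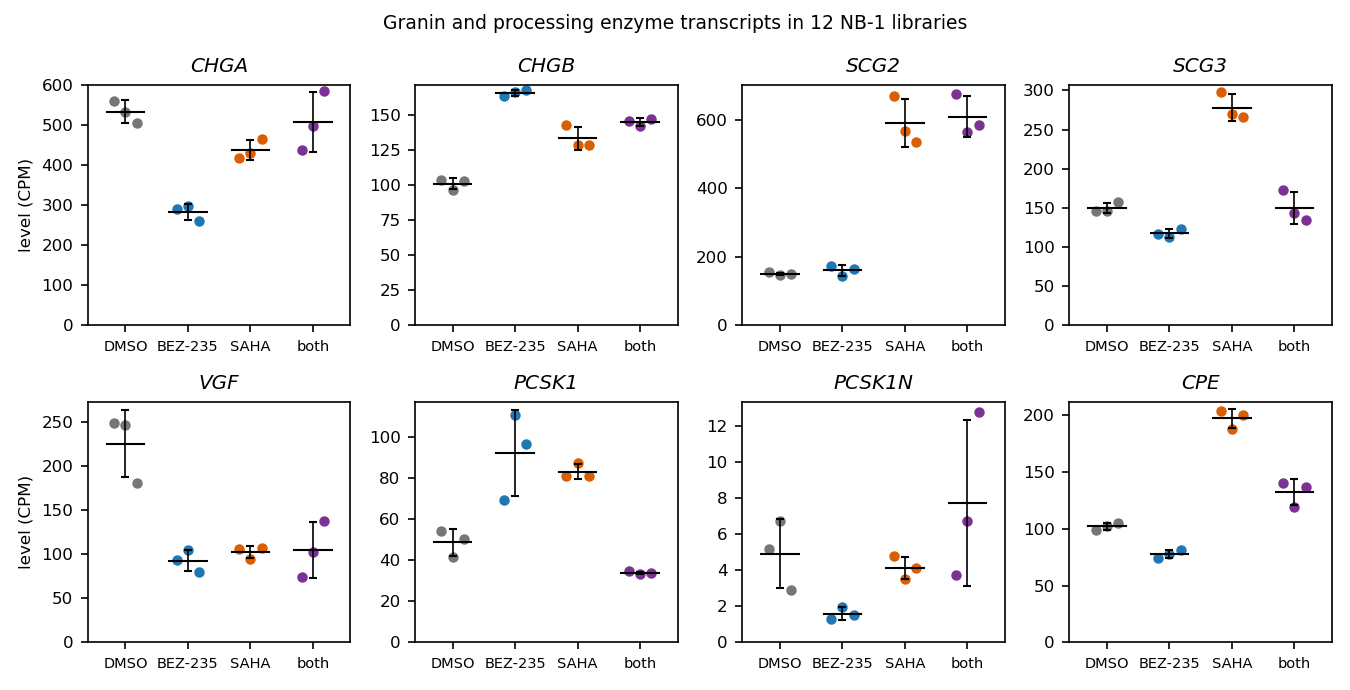
CPM (vertical axes, from 0, a different scale in each panel) of the 8 tested genes in each of the 12 libraries, with 1 point per library and horizontal lines and bars for the group mean and SD (n = 3). SCG2 is at 144 to 173 CPM without SAHA and at 535 CPM or more in the 6 libraries that received it, and PCSK1 is lowest in the 3 libraries with both drugs.

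CHGA (ENSG00000100604, chromosome 14, 92923080 to 92935293 in hg38, plus strand), which encodes chromogranin A, stood at 561, 533 and 505 CPM in the DMSO libraries and at 289.9, 298 and 261 CPM with BEZ-235. It measured 417, 429.8 and 466 CPM with SAHA and 437, 498 and 585 CPM with both drugs. The 3 BEZ-235 libraries were the lowest of all 12, the SAHA libraries lay below DMSO without overlap, and the libraries with both drugs overlapped DMSO. CHGA fell 1.88-fold with BEZ-235 (−0.91 ± 0.10, adjusted p = 1.12e-06) and 1.22-fold with SAHA (−0.28 ± 0.10, adjusted p = 0.0264). The SAHA call was lost after the GC correction (−0.11 ± 0.07, adjusted p = 0.229) and without DMSO replicate 1, DMSO replicate 2, SAHA replicate 1 or SAHA replicate 2 (adjusted p = 0.111, 0.0573, 0.0910 and 0.0807). With both drugs its difference from DMSO was −0.07 ± 0.10 (adjusted p = 0.529). After the GC correction the both-drug libraries stood at 381, 374 and 397 CPM against 557, 500.3 and 559 in DMSO, a fall of −0.49 ± 0.07 (adjusted p = 1.12e-05).

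CHGB (ENSG00000089199, chromosome 20, 5911430 to 5925361, plus strand), the gene of chromogranin B, rose in every treated group while CHGA did not. It stood at 104, 96.2 and 102 CPM in DMSO, 163, 166 and 168 with BEZ-235, 143, 128 and 129 with SAHA, and 146, 142 and 147 with both drugs. All 9 treated libraries lay above all 3 DMSO libraries, and the BEZ-235 libraries were the highest. The rise was 1.64-fold with BEZ-235 (0.72 ± 0.07, adjusted p = 2.71e-07), 1.32-fold with SAHA (0.40 ± 0.07, adjusted p = 0.000171) and 1.44-fold with both drugs (0.52 ± 0.07, adjusted p = 4.64e-06).

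SCG2 (ENSG00000171951, chromosome 2, 223596940 to 223602503, minus strand) encodes secretogranin II, the precursor of secretoneurin, and followed SAHA with or without BEZ-235. In DMSO it stood at 154, 146 and 148 CPM, and with BEZ-235 at 173, 144 and 163 CPM. With SAHA it measured 669, 565 and 535 CPM, and with both drugs 676, 563 and 585 CPM. The 6 libraries that received SAHA lay above the 6 that did not, with no library between 173 and 535 CPM. SCG2 rose 3.94-fold with SAHA (1.98 ± 0.10, adjusted p = 8.04e-10) and 4.07-fold with both drugs (2.02 ± 0.10, adjusted p = 5.83e-11). With BEZ-235 alone the difference was 0.09 ± 0.10, with a 95% interval of −0.11 to 0.30 (adjusted p = 0.452).

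SCG3 (ENSG00000104112, chromosome 15, 51681353 to 51721031, plus strand), secretogranin III, which links chromogranin A to the granule membrane, stood at 145, 146 and 157 CPM in DMSO and 116, 112 and 123 with BEZ-235. It measured 298, 269 and 266 CPM with SAHA and 173, 143 and 134 CPM with both drugs. SAHA libraries were the highest and BEZ-235 libraries the lowest, and the libraries with both drugs overlapped DMSO. SCG3 fell 1.28-fold with BEZ-235 (−0.35 ± 0.09, adjusted p = 0.00393) and rose 1.86-fold with SAHA (0.89 ± 0.09, adjusted p = 9.40e-07). With both drugs the value was 0.0021 ± 0.09, with an interval of −0.19 to 0.19 (adjusted p = 0.985). After the GC correction it was 0.35 ± 0.07 (adjusted p = 0.000221).

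VGF (ENSG00000128564, chromosome 7, 101162509 to 101165593, minus strand), a precursor of several neuropeptides, was lower in all 3 treated groups. It stood at 248, 246 and 181 CPM in DMSO, 93.5, 105 and 80.4 with BEZ-235, 106, 94.9 and 107 with SAHA, and 74.2, 102 and 138 with both drugs. All 9 treated libraries lay below the 3 DMSO libraries, and those with both drugs spread the most among the treated groups. VGF fell 2.43-fold with BEZ-235 (−1.28 ± 0.20, adjusted p = 0.000327), 2.19-fold with SAHA (−1.13 ± 0.20, adjusted p = 0.000920) and 2.15-fold with both drugs (−1.10 ± 0.20, adjusted p = 0.000577). After the GC correction the changes were −0.86 ± 0.07, −0.64 ± 0.07 and −1.69 ± 0.07, and the libraries with both drugs, at 65.3, 63.5 and 66.7 CPM, then lay below the 6 libraries with 1 drug, at 102 to 139 CPM.

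PCSK1 (ENSG00000175426, chromosome 5, 96390415 to 96434143, minus strand), the gene of prohormone convertase 1/3, was higher with either drug and lower with both. Its levels were 54.3, 41.3 and 50.5 CPM in DMSO, 69.4, 110.5 and 96.6 with BEZ-235, 81.1, 87.3 and 81.0 with SAHA, and 34.5, 33.5 and 33.6 with both drugs. The groups with 1 drug lay above DMSO and the group with both drugs below it, each without overlap. PCSK1 rose 1.89-fold with BEZ-235 (0.92 ± 0.14, adjusted p = 4.41e-05) and 1.71-fold with SAHA (0.77 ± 0.13, adjusted p = 0.000280), and fell 1.44-fold with both drugs (−0.52 ± 0.14, adjusted p = 0.00389). After the GC correction the last value was −0.29 ± 0.14 and no longer passed (adjusted p = 0.0758).

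PCSK1N (ENSG00000102109, chromosome X, 48831094 to 48835633, minus strand), which encodes the inhibitor of that convertase, was scarce, with 24 to 282 counts in a library. It stood at 5.17, 6.73 and 2.89 CPM in DMSO, 1.29, 1.98 and 1.51 with BEZ-235, 4.78, 3.55 and 4.12 with SAHA, and 3.72, 6.73 and 12.8 with both drugs. The BEZ-235 libraries lay below all the others, and the remaining groups overlapped. It fell 3.09-fold with BEZ-235 (−1.63 ± 0.46, adjusted p = 0.0112). With SAHA the difference was −0.26 ± 0.40 (adjusted p = 0.634), or 0.44 ± 0.20 after the GC correction (adjusted p = 0.0847). With both drugs it was 0.66 ± 0.40 (adjusted p = 0.165), which passed without combination replicate 1 (0.98, adjusted p = 0.0153) and was −0.11 ± 0.20 after the GC correction (adjusted p = 0.662).

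CPE (ENSG00000109472, chromosome 4, 165361194 to 165498320, plus strand), carboxypeptidase E, was lowest with BEZ-235 and highest with SAHA, as was SCG3. It stood at 98.8, 102 and 105 CPM in DMSO, 74.1, 77.6 and 81.1 with BEZ-235, 203, 188 and 199.7 with SAHA, and 140.0, 119 and 137 with both drugs. No pair of groups overlapped. CPE fell 1.31-fold with BEZ-235 (−0.39 ± 0.08, adjusted p = 0.000424), rose 1.93-fold with SAHA (0.95 ± 0.08, adjusted p = 8.02e-08) and rose 1.30-fold with both drugs (0.37 ± 0.08, adjusted p = 0.000388).

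SCG5 (ENSG00000166922, chromosome 15, 32641676 to 32697098, plus strand) held 5, 2 and 1 counts in DMSO, 2, 1 and 2 with BEZ-235, 7, 27 and 3 with SAHA, and 4, 3 and 4 with both drugs. The 27 counts came from the deepest library and equal 0.339 CPM, below the 0.360 CPM of SAHA replicate 1. PCSK2 (ENSG00000125851, chromosome 20, 17226107 to 17484578, plus strand) held 0 to 4 counts in a library. Against a limit of 3 counts, which a count of 0 allows, PCSK2 exceeded the limit in combination replicates 1 and 3 only, with 4 counts each. With no filter on low counts, PCSK2 passed as higher with both drugs than with SAHA (adjusted p = 0.0478), from 9 counts against 2 over 3 libraries each, and SCG5 passed in no comparison. The convertase PCSK2 and its chaperone were thus both at or near the counting limit, while PCSK1 was measured in every library. Limits of this kind cover counting error only.

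**Figure D2:**
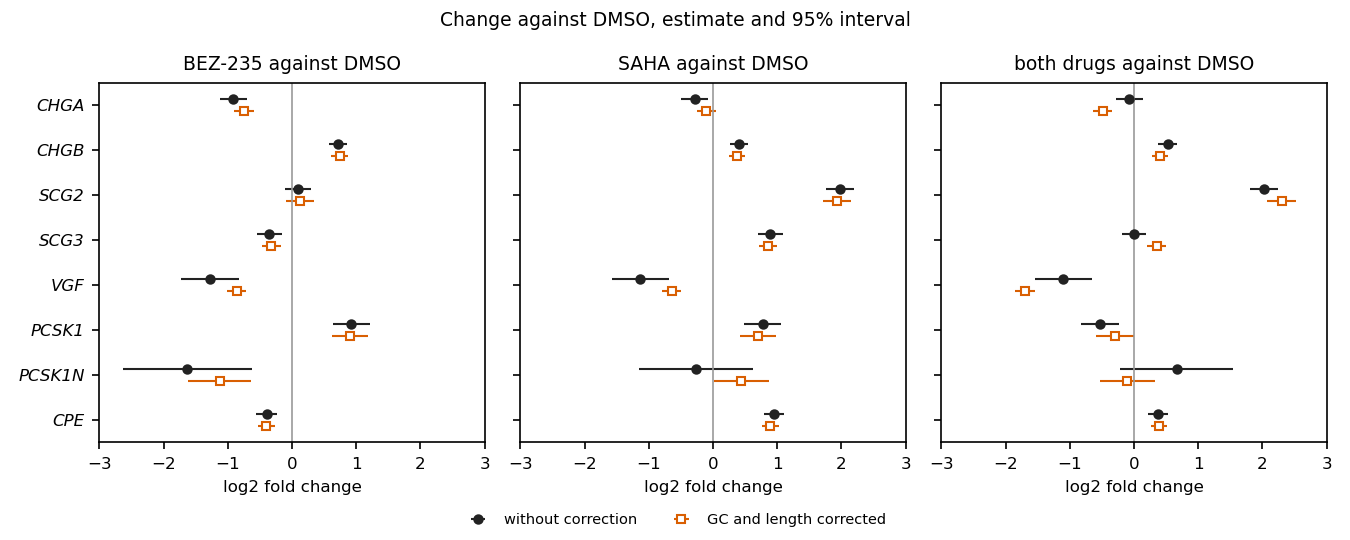
Log2 fold change against DMSO (horizontal axis, −3 to 3) of the 8 tested genes in 3 panels, with filled circles for the uncorrected fit, open squares for the GC and length corrected fit, and bars for the 95% interval. With both drugs VGF moves from −1.10 to −1.69 under the correction and SCG3 from near 0 to 0.35, while CHGB and CPE stay to the right of 0 in both fits.

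Under each drug the members moved in both directions, as did the whole table. With BEZ-235 against DMSO, 2 of the 8 tested genes rose (CHGB and PCSK1) and 5 fell (CHGA, SCG3, VGF, PCSK1N and CPE), where 25.5% of all tested genes rose and 25.4% fell. The members' median log2 fold change was −0.37 and that of all genes 0.02. With SAHA against DMSO, 5 rose (CHGB, SCG2, SCG3, PCSK1 and CPE) and 2 fell (CHGA and VGF), where 22.2% of all genes rose and 20.9% fell, with medians of 0.59 for the members and −0.01 for all genes. With both drugs against DMSO, 3 rose (CHGB, SCG2 and CPE) and 2 fell (VGF and PCSK1), where 33.2% rose and 31.2% fell, with medians of 0.19 and 0.03. After the GC correction 4 rose and 2 fell with both drugs, since SCG3 and CHGA then passed and PCSK1 did not. The members' median was then 0.12. These 3 comparisons share the DMSO libraries.

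Adding SAHA to BEZ-235 raised 5 of the 8 tested genes. Both drugs against BEZ-235 alone gave 5 higher (CHGA, SCG2, SCG3, PCSK1N and CPE) and 2 lower (CHGB and PCSK1), where 29.5% of all genes were higher and 28.5% lower, with medians of 0.56 and 0.01. SCG2 rose 3.81-fold in this comparison (1.93 ± 0.10, adjusted p = 6.02e-10), from BEZ-235 libraries that did not overlap those with both drugs. PCSK1N rose by 2.29 ± 0.45 (adjusted p = 0.00101), or 1.02 ± 0.23 after the GC correction. CHGA rose by 0.84 ± 0.10 (adjusted p = 2.34e-06), or 0.26 ± 0.07 after the correction. CPE rose by 0.77 ± 0.08 (adjusted p = 4.18e-07) and SCG3 by 0.35 ± 0.09 (adjusted p = 0.00310), or 0.68 ± 0.07 for SCG3 after the correction. PCSK1 fell 2.72-fold (−1.45 ± 0.14, adjusted p = 5.33e-07). CHGB was lower by a small step (−0.20 ± 0.07, adjusted p = 0.0210), a call lost without BEZ-235 replicate 3 (adjusted p = 0.0565) or combination replicate 2 (adjusted p = 0.0547). After the correction CHGB was at −0.34 ± 0.06 (adjusted p = 0.000110). VGF missed the threshold without the correction (0.18 ± 0.20, adjusted p = 0.480) and was lower with it (−0.84 ± 0.07, adjusted p = 4.97e-08).

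Adding BEZ-235 to SAHA lowered 3 members and raised 0 at the adjusted threshold of edgeR. At an unadjusted p under 0.05 CHGA and PCSK1N were higher, and DESeq2 called 1 higher, PCSK1N. In this comparison, 29.9% of all genes were higher and 28.9% lower, with medians of 0.04 for the members and 0.03 for all genes. The medians after the GC correction were −0.50 for the members and 0.05 for all genes. PCSK1 fell 2.46-fold (−1.30 ± 0.14, adjusted p = 1.43e-06), SCG3 1.85-fold (−0.89 ± 0.09, adjusted p = 4.75e-07) and CPE 1.49-fold (−0.58 ± 0.08, adjusted p = 7.06e-06). SCG3 fell by 0.50 ± 0.07 after the GC correction. The remaining 5 genes did not pass, among them SCG2 at 0.04 ± 0.10 with an interval of −0.16 to 0.25 (adjusted p = 0.714), and CHGB at 0.12 ± 0.07 (adjusted p = 0.135), or 0.03 ± 0.06 after the correction (adjusted p = 0.667). After the correction SCG2 was higher (0.37 ± 0.10, adjusted p = 0.00534). The 3 GC-rich genes changed sign under the correction: VGF from 0.03 ± 0.20 (adjusted p = 0.901) to −1.05 ± 0.07 (adjusted p = 2.28e-09), CHGA from 0.21 ± 0.10 (adjusted p = 0.0729) to −0.38 ± 0.07 (adjusted p = 0.000228), and PCSK1N from 0.93 ± 0.39 (adjusted p = 0.0624) to −0.55 ± 0.20 (adjusted p = 0.0294). With the correction 1 member was higher and 6 were lower. Without combination replicate 1, CHGA (0.29, adjusted p = 0.0132) and PCSK1N (1.24, adjusted p = 0.00392) passed as higher, which makes 5 called members, and PCSK1N also passed without DMSO replicate 3 (0.91, adjusted p = 0.0450).

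**Figure D3:**
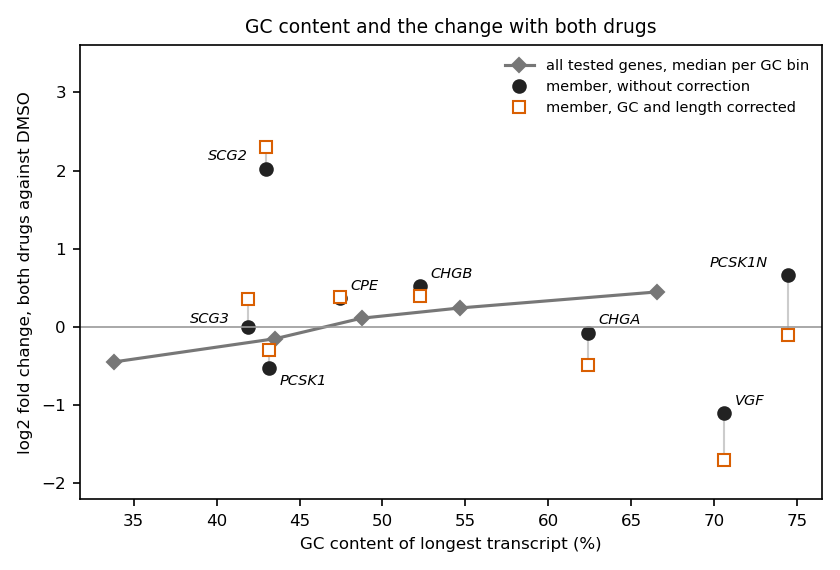
Log2 fold change with both drugs against DMSO (vertical axis) against the GC content of the longest transcript in percent (horizontal axis), with filled circles for members without correction, open squares for members after the GC and length correction, and diamonds joined by a line for the median of all tested genes in each of 5 bins of GC content. The medians climb from −0.45 to 0.45, and CHGA, VGF and PCSK1N, at 62.4% GC and above, move down under the correction.

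Set against each other, the single drugs separated 6 of the 8 genes. CHGB was higher with BEZ-235 than with SAHA (0.32 ± 0.07, adjusted p = 0.000715), and CHGA, SCG2, SCG3, PCSK1N and CPE were lower, where 29.8% of all genes were higher and 30% lower and the medians were −0.94 for the members and 0.02 for all genes. SCG2 was 3.70-fold lower (−1.89 ± 0.10, adjusted p = 1.56e-10), CPE 2.54-fold (−1.34 ± 0.08, adjusted p = 3.30e-10) and SCG3 2.37-fold (−1.24 ± 0.09, adjusted p = 6.73e-09). CHGA was 1.55-fold lower (−0.63 ± 0.10, adjusted p = 3.75e-05). PCSK1N, 2.57-fold lower (−1.36 ± 0.45, adjusted p = 0.0218), lost its call without BEZ-235 replicate 1 or 3 or SAHA replicate 1 or 3 (adjusted p = 0.0765, 0.0702, 0.0522 and 0.0539). PCSK1 did not pass (0.15 ± 0.13, interval −0.13 to 0.43, adjusted p = 0.351) except without BEZ-235 replicate 1 (0.30, adjusted p = 0.0243). VGF did not pass either (−0.14 ± 0.20, interval −0.59 to 0.30, adjusted p = 0.561) and was lower after the GC correction (−0.22 ± 0.07, adjusted p = 0.0133).

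The interaction asks whether SAHA changed a gene by a different amount when BEZ-235 was present, as the log2 change with SAHA beside BEZ-235 minus that with SAHA alone. It was positive for 3 genes and negative for 3, where 18.9% of all genes were positive and 19.6% negative, with medians of −0.12 for the members and −0.04 for all genes. PCSK1 had −2.22 ± 0.19 (adjusted p = 9.02e-06), since SAHA raised it alone by 0.77 and lowered it by 1.45 beside BEZ-235, and −1.89 ± 0.18 after the GC correction (adjusted p = 4.84e-05). CHGB had −0.60 ± 0.10 (adjusted p = 0.000332), rising with SAHA alone and not beside BEZ-235. CHGA had 1.12 ± 0.14 (adjusted p = 6.40e-05), or 0.37 ± 0.10 after the correction (adjusted p = 0.0172). For the other 3 the correction ended the call. SCG3 went from −0.54 ± 0.13 (adjusted p = 0.00367) to −0.18 ± 0.10 (adjusted p = 0.201), PCSK1N from 2.56 ± 0.60 (adjusted p = 0.00665) to 0.58 ± 0.31 (adjusted p = 0.201), and VGF from 1.31 ± 0.28 (adjusted p = 0.00456) to −0.19 ± 0.10 (adjusted p = 0.194). Neither SCG2 (−0.05 ± 0.14, interval −0.34 to 0.24, adjusted p = 0.808) nor CPE (−0.18 ± 0.11, interval −0.41 to 0.04, adjusted p = 0.192) passed. After the correction SCG2 was at 0.25 ± 0.14 (adjusted p = 0.241) and CPE at −0.10 ± 0.09 (adjusted p = 0.434), so the SCG2 value turned in sign without passing in either fit.

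**Figure D4:**
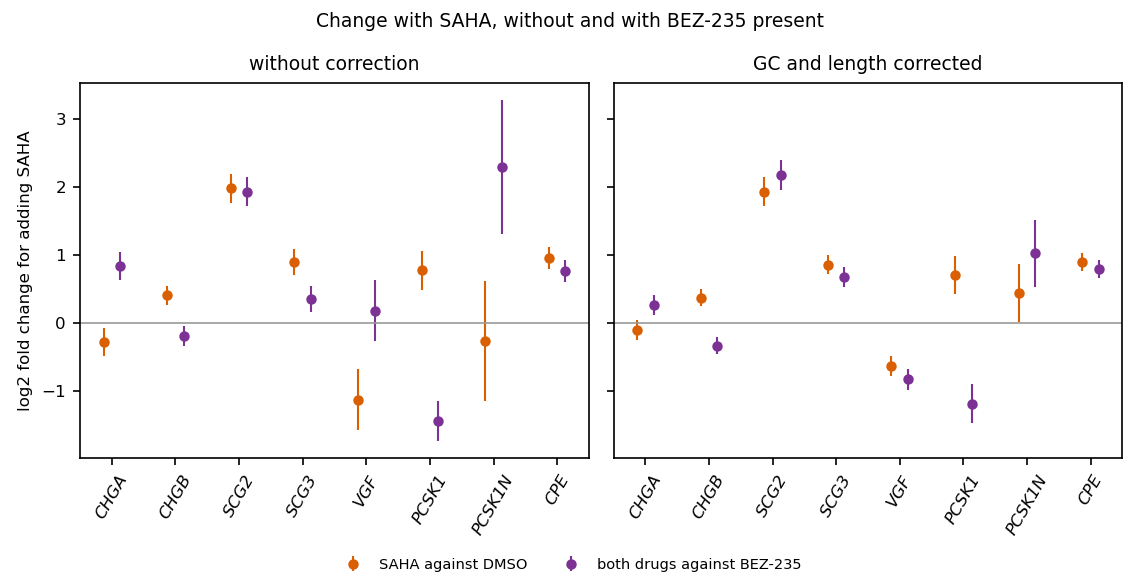
Log2 fold change for adding SAHA (vertical axis) to DMSO cultures (orange) and to BEZ-235 cultures (purple) for the 8 tested genes, with 95% intervals, without correction on the left and GC and length corrected on the right. PCSK1 lies above 0 alone and below 0 beside BEZ-235 in both panels, and SCG2 lies near 2 in all 4 cases.

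Over the 8 genes and 7 comparisons, 41 of 56 values were called, 44 were called after the GC correction, and 36 were called in both with the same sign. Over all tested genes and the same comparisons, 53.3% of values were called, and 51.9% after the correction.

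The makeup of the granin and enzyme transcripts shifted with these changes. The 10 genes together held 1314 ± 59.2 CPM in DMSO (SD, n = 3), 990.0 ± 22.2 with BEZ-235, 1826 ± 84.1 with SAHA and 1688 ± 82.1 with both drugs, with no overlap of the library sums with DMSO in any treated group. CHGA made up 40.3 to 40.9% of this sum in DMSO libraries, 26.8 to 29.6% with BEZ-235, 21.7 to 26.1% with SAHA and 25.9 to 33.0% with both drugs. SCG2 made up 11.1 to 11.8% in DMSO, 14.1 to 17.6% with BEZ-235, 29.9 to 34.8% with SAHA and 33.0 to 40.1% with both drugs. Per kilobase, the ratio of SCG2 to CHGA was 0.225 in DMSO, 0.454 with BEZ-235, 1.09 with SAHA and 0.982 with both drugs. After the GC correction it was 0.885 with SAHA and 1.47 with both drugs. The ratio of the inhibitor transcript PCSK1N to PCSK1 was 0.509 in DMSO (0.277 to 0.789 over the libraries) and 0.0840 with BEZ-235 (0.0755 to 0.0898), with SAHA between them at 0.243, or 0.384 after the GC correction. With both drugs it was 1.11 (0.522 to 1.85), or 0.502 after the GC correction, against 0.454 in DMSO after the same correction. The ratio of PCSK1 to CPE was 0.228 in DMSO, 0.563 with BEZ-235, 0.201 with SAHA and 0.123 with both drugs. The ratios of both transcripts in 1 library are descriptions of RNA, and no enzyme activity was measured.

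Further enzymes and partners of peptide maturation gave 15 tested genes of 18 listed, with 5 higher and 3 lower under BEZ-235, 7 and 2 under SAHA, and 8 and 6 under both drugs, with medians of 0.11, 0.43 and 0.31. Over all tested genes 25.5% were higher and 25.4% lower under BEZ-235, 22.2% and 20.9% under SAHA, and 33.2% and 31.2% under both drugs, with medians of 0.02, −0.01 and 0.03. PAM, which amidates peptide ends, rose with SAHA from 119 ± 3.45 to 278 ± 11.3 CPM (SD, n = 3; 1.22 ± 0.08, adjusted p = 6.66e-09). It rose less with both drugs (0.31, adjusted p = 0.00203). The cathepsin genes CTSH (2.21 ± 0.14, adjusted p = 9.44e-10) and CTSL (0.88 ± 0.08, adjusted p = 3.89e-08) rose with both drugs. PCSK7, another convertase, fell with BEZ-235 (−0.86 ± 0.10, adjusted p = 1.51e-06) and with both drugs (−0.54, adjusted p = 9.55e-05). PDIA3, a disulfide isomerase, fell with BEZ-235 (−0.77 ± 0.09, adjusted p = 2.98e-06) and with both drugs (−1.03 ± 0.09, adjusted p = 5.40e-08). MBTPS1, the site-1 protease, fell with BEZ-235 (−0.22, adjusted p = 0.0127), SAHA (−0.24 ± 0.07, adjusted p = 0.00896) and both drugs (−0.52 ± 0.07, adjusted p = 5.54e-06).

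Genes of dense core granule assembly, traffic and release gave 36 tested of 43 listed, with 18 higher and 8 lower under BEZ-235, 20 and 4 under SAHA, and 23 and 8 under both drugs (24 and 5 after the GC correction). Their medians were 0.23, 0.39 and 0.49, against 0.02, −0.01 and 0.03 for all genes. The shares of all genes higher and lower were again 25.5% and 25.4%, 22.2% and 20.9%, and 33.2% and 31.2%. VAMP2, a vesicle fusion protein, rose with BEZ-235 (1.02 ± 0.07, adjusted p = 1.21e-08), as did CADPS, which primes granules for release (1.43 ± 0.12, adjusted p = 5.48e-08). VAMP2 also rose with SAHA (0.48, adjusted p = 7.41e-05) and most with both drugs (1.39, adjusted p = 1.26e-10). CADPS rose less with SAHA (0.47, adjusted p = 0.00462) and with both drugs (0.44, adjusted p = 0.00469). The synaptotagmin genes SYT9 (1.81 ± 0.12, adjusted p = 8.24e-09) and SYT4 (1.73 ± 0.13, adjusted p = 3.55e-08) rose with SAHA. SYT4 also rose with BEZ-235 (1.27, adjusted p = 5.02e-07) and with both drugs (0.90, adjusted p = 1.05e-05). SYT9 rose with both drugs (1.47, adjusted p = 2.01e-08) and fell with BEZ-235 (−0.36, adjusted p = 0.0320). With both drugs HID1, needed for granule maturation, went from 8.04 ± 1.29 to 54.1 ± 5.63 CPM (SD, n = 3; 2.75 ± 0.14, adjusted p = 6.53e-11), and RAB3A, a small GTPase of release, rose by 2.04 ± 0.09 (adjusted p = 1.59e-11). HID1 and RAB3A rose less with BEZ-235 (0.54 and 0.61, adjusted p = 0.00569 and 3.63e-05) and with SAHA (1.60 and 0.91, adjusted p = 1.86e-07 and 7.41e-07). EIPR1, a granule biogenesis factor, fell in all 3 comparisons with DMSO (−1.11 ± 0.10, −0.36 ± 0.09 and −0.96 ± 0.10, adjusted p up to 0.00564). VPS52 of the same trafficking machinery fell with SAHA (−0.58 ± 0.08, adjusted p = 3.56e-05) and with both drugs (−0.63 ± 0.08, adjusted p = 6.31e-06). PTPRN, a granule membrane protein singled out after its values were seen, averaged 47.7 CPM in DMSO, 55.5 with BEZ-235, 98.4 with SAHA and 174 with both drugs.

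Of 66 listed precursors of peptide hormones and neuropeptides, the substrates of these enzymes, 18 were tested, with 6 higher and 9 lower under BEZ-235, 6 and 3 under SAHA, and 5 and 6 under both drugs (8 and 8 after the GC correction). Their medians were −0.27, 0.36 and −0.15, the last of which was 0.07 after the GC correction. Of all genes 25.5% were higher and 25.4% lower under BEZ-235, 22.2% and 20.9% under SAHA, and 33.2% and 31.2% under both drugs. VIP, vasoactive intestinal peptide, fell with BEZ-235 (−1.53 ± 0.17, adjusted p = 1.24e-06) and rose with SAHA (1.69 ± 0.14, adjusted p = 1.30e-07). NMU, neuromedin U, fell with BEZ-235 (−1.81 ± 0.18, adjusted p = 3.19e-07) and with both drugs (−2.51 ± 0.19, adjusted p = 7.12e-09). TAC3, the neurokinin B precursor, averaged 1.13 CPM in DMSO, 13.6 with BEZ-235, 12.8 with SAHA and 34.7 with both drugs, and rose in all 3 comparisons. The apelin gene APLN fell in all 3 comparisons with DMSO (−2.01, −1.80 ± 0.31 and −2.41 ± 0.35, adjusted p = 0.000104, 0.000195 and 1.40e-05).

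Regulators of neuroendocrine transcription gave 25 tested of 31 listed, with 13 higher and 6 lower under BEZ-235. Under SAHA 8 were higher and 8 lower (8 and 13 after the GC correction). Under both drugs the counts were 9 and 11 (12 and 9 after the correction). Their medians were 0.25, −0.14 and −0.07, the last of which was −0.02 after the GC correction. The shares of all genes were 25.5% higher and 25.4% lower under BEZ-235, 22.2% and 20.9% under SAHA, and 33.2% and 31.2% under both drugs. ISL1, a transcription factor of the sympathoadrenal lineage, fell with BEZ-235 (−1.18 ± 0.12, adjusted p = 4.13e-07) and with both drugs (−0.82, adjusted p = 1.02e-05). With SAHA it rose (0.33, adjusted p = 0.0218). SRRM4, a splicing factor that inactivates REST in neurons, rose with BEZ-235 (0.98 ± 0.10, adjusted p = 5.53e-07), SAHA (0.50, adjusted p = 0.000711) and both drugs (1.40 ± 0.10, adjusted p = 3.73e-09). RCOR2, a corepressor partner of REST, fell with SAHA (−0.89 ± 0.11, adjusted p = 5.38e-06) and RCOR1 with both drugs (−0.52 ± 0.07, adjusted p = 1.02e-05). RCOR1 was also lower with BEZ-235 (−0.19, adjusted p = 0.0391). REST, the repressor of many granin genes in non-neuronal cells, named after its values were seen, averaged 47.3 CPM in DMSO. It averaged 52.8 CPM with BEZ-235 (0.16, adjusted p = 0.245), 40.5 with SAHA (−0.22, adjusted p = 0.121) and 33.9 with both drugs (−0.48, adjusted p = 0.00142). Only the last difference was called, and the part of REST in the granin changes was not tested. EGR1, an early response factor, fell with BEZ-235 (−1.15, adjusted p = 5.55e-05), SAHA (−1.39 ± 0.17, adjusted p = 1.19e-05) and both drugs (−0.83, adjusted p = 0.000551). The CREB family gene CREB3L2 rose with BEZ-235 (0.41, adjusted p = 0.000295), SAHA (1.17 ± 0.08, adjusted p = 7.69e-09) and both drugs (0.89, adjusted p = 3.34e-08).

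Genes outside the list were ranked by how closely their log2 CPM followed a member over the 12 libraries, for the 3 members with the widest range of group means. NCAM2 (Pearson r = 0.997), RAB6B (0.993) and ATP1B2 (0.990) were nearest to SCG2, and NCAM2 averaged 17.3 CPM in DMSO, 19.3 with BEZ-235, 80.0 with SAHA and 89.6 with both drugs. CTBS (0.976), MAP2 (0.968) and CDK19 (0.965) were nearest to PCSK1. GPC1 (0.956) and CORO7 (0.950) were among those nearest to PCSK1N. These values describe 12 points that share 4 treatments and the libraries themselves, and they carry no test. They were taken without the GC correction, and PCSK1N lies in the highest bin of GC content.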

How the data were processed

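Polyadenylated RNA of NB-1 cultures was sequenced in 12 libraries. Reads were aligned with STAR and counted with RSEM on hg38, per the submitters' processing notes. For tool versions and annotation, nothing is given in the sources used here. Values as deposited are RSEM's expected counts, which the authors scaled neither for depth nor length, and were rounded to whole counts here. Groups came from the treatment labels. Names, coordinates, length and GC content came from GENCODE release 29.

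edgeR 4.0.16 (R 4.3.3; TMM scaling, factors 0.981 to 1.028; robust quasi-likelihood; filterByExpr) fitted 12 libraries as 4 groups, leaving 8 residual degrees of freedom, and the fit was tested on simulated data. Tested genes held 99.87% of a library's counts or more. Replicate variance was 8.22 to 18.5 times that of counting alone, with a biological coefficient of variation of 10.6%. Spread between replicate libraries thus limits precision more than depth, except for scarce genes. Culture and library preparation cannot be told apart in that spread. The GC and length correction used natural splines with 5 degrees of freedom each.

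Alternatives were relative log expression scaling, DESeq2 1.42.0, 2 other filters (none, or a mean CPM of at least 1), unrounded counts, the replicate number as a block, the GC and length correction with and without that block, fits of only the groups compared, union exon lengths, GC-corrected ratios and each library left out. All 10 members are named. Of each of the 5 further lists the 2 genes with the smallest p in each direction among those called against DMSO were eligible, and like genes were the 3 with the highest correlation. Members and lists were chosen with earlier results of these data known. Some genes that these rules name are not reported here.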

Additional observations from a re-analysis of the deposited data

Results flagged for a closer look

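For 6 of the 8 tested genes the change with SAHA differed by whether BEZ-235 was present, by the interaction term of the edgeR fit over all genes (3 libraries per group, adjusted p over 17774 genes). Of all tested genes 38.4% passed this term, and 19.0% after the GC and length correction, where 3 of the 8 passed. Values are log2 differences, and the value after the GC and length correction follows each. PCSK1 had −2.22 (adjusted p = 9.02e-06), or −1.89. CHGB had −0.60 (adjusted p = 0.000332), or −0.71. CHGA had 1.12 (adjusted p = 6.40e-05), or 0.37. These 3 passed with and without the correction. SCG3 had −0.54 (adjusted p = 0.00367), or −0.18. PCSK1N had 2.56 (adjusted p = 0.00665), or 0.58. VGF had 1.31 (adjusted p = 0.00456), or −0.19. These 3 did not pass after the correction.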

How the results depend on the processing

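The GC and length correction was the alternative that moved most. It reversed VGF in both drugs against BEZ-235 (−0.84, and −0.84 with the replicate block), VGF, CHGA and PCSK1N in both drugs against SAHA (−1.05, −0.38 and −0.55, and −1.05, −0.38 and −0.56 with the block), and VGF in the interaction (−0.19, and −0.19 with the block). Called members rose to 7 in both drugs against SAHA (7 with the block) and fell to 3 in the interaction (3 with the block). Genes called in the interaction fell to 3378 (2873 with the block). The cause was not tested. Leaving out 1 library gave 3 to 5 called members in both drugs against SAHA, with 5 without combination replicate 1. It changed the side of the threshold for 15 values over all left-out libraries, each named above, and turned no called value.

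No shared deviation of same-numbered replicates was detected (correlations −0.164 to 0.128, against −0.145 to 0.160 for other numbers, with 1 of 12 libraries closest to its own number). With 3 libraries per group, such correlations cannot show whether a number marks a shared day, and the labels do not say. With the replicate block 8562 genes were called in BEZ-235 against DMSO and 6161 in the interaction, and no member crossed the threshold. Relative log expression scaling, unrounded counts and fits of only the groups compared moved no member across the threshold. DESeq2 (adjusted p = 0.0416) and the stricter filter (0.0495) brought in PCSK1N in both drugs against SAHA, and no filter took out CHGB in both drugs against BEZ-235 (0.0745) and brought in PCSK2 as given above. Depth limits SCG5, PCSK2 and, in part, PCSK1N.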

Other observations

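Genes of the granule membrane and of small granule cargo, which load amines, zinc and protons, gave 17 tested of 19 listed. With BEZ-235 3 were higher and 5 lower, with SAHA 8 and 4, and with both drugs 6 and 7, with medians of −0.05, 0.28 and −0.11. Of all tested genes 25.5% were higher and 25.4% lower with BEZ-235, 22.2% and 20.9% with SAHA, and 33.2% and 31.2% with both drugs, with medians of 0.02, −0.01 and 0.03. CYB561, which passes electrons into granules for amine synthesis, fell with SAHA from 19.5 ± 1.57 to 4.85 ± 0.84 CPM (SD, n = 3; −1.99 ± 0.14, adjusted p = 1.92e-08 by edgeR) and with both drugs (−2.43 ± 0.15, adjusted p = 7.02e-10). It fell less with BEZ-235 (−0.49, adjusted p = 0.00530). SCGN, a calcium sensor of secretory cells, rose with SAHA (0.98 ± 0.11, adjusted p = 2.85e-06) and with both drugs (0.91 ± 0.11, adjusted p = 1.99e-06). ATP6V0A2, a proton pump subunit, fell in all 3 comparisons with DMSO (−0.65 ± 0.09, −0.61 ± 0.09 and −1.25 ± 0.09), while ATP6V0A1 rose with both drugs (0.55 ± 0.08, adjusted p = 1.02e-05, or 0.36 after the GC correction). ATP6V0A1 rose with SAHA too (0.36, adjusted p = 0.00126). SV2A, a vesicle glycoprotein, fell with BEZ-235 (−0.58 ± 0.07, adjusted p = 3.92e-06) and the amine transporter SLC18A2 rose (0.49 ± 0.11, adjusted p = 0.00123). SV2A rose with SAHA (0.32, adjusted p = 0.00152). SLC18A2 also rose with SAHA (0.66, adjusted p = 0.000106) and with both drugs (0.28, adjusted p = 0.0303).

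Among the members, log2 CPM over the 12 libraries followed each other most closely for SCG3 and CPE (Pearson r = 0.929), CHGA and PCSK1N (0.885) and SCG2 and CPE (0.842), and ran opposite most for CHGB and VGF (−0.851). The points share 4 treatments and the same libraries, so these values are descriptions with no test. They were taken without the GC correction, and CHGA, VGF and PCSK1N lie in the highest bin of GC content. The part of the GC trend in them was not tested.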
